A study of Homo sapiens with 8 samples.

Results

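The replication-dependent histone genes are described here in DLD1 cells, a human colorectal cancer cell line, that overexpressed the wild-type tRNA methyltransferase TRMT6/61A (OE-WT) or carried an empty vector (CTRL). Members were the rows of the deposited count table that GENCODE annotates as protein coding and whose symbols are H1-1 to H1-6 or begin with H2AC, H2BC, H3C or H4C followed by a number. The table held 65 such genes among 58302 rows, with 6 H1, 15 H2A, 18 H2B, 11 H3 and 15 H4 genes. H2AC18, H2AC19, H3C2 and H3C3 carry identifiers that matched no row and are not analysed here. RNA-seq was available for 2 libraries per group. Cells of both groups had been transduced with lentivirus and kept as stably transduced lines, with TRMT6 and TRMT61A cloned into the expression vector for OE-WT. Whether the lines were clones is not given in the sources used here, and p-values measure the spread between the libraries of each group.

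Replication-dependent histones package newly made DNA, and their mRNAs accumulate in S phase and are degraded when replication ends. Histones H3, H4, H2A and H2B form the nucleosome core and H1 binds the linker DNA. These mRNAs normally carry no poly(A) tail: they end a few bases after a conserved stem-loop, which is bound by the stem-loop binding protein SLBP and is required for the cut made by the U7 small nuclear ribonucleoprotein. The genes lie in clusters on chromosomes 6 and 1 and are transcribed at histone locus bodies organised by NPAT, and the variants made outside S phase come from other genes with polyadenylated mRNAs.

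The stem-loop sequences are shown first because they are the element these mRNAs share in place of a tail. A stem of 6 base pairs around a loop of 4 bases was searched in the 150 bases after the stop codon in GRCh38, and 62 of the 65 members held a match. H2BC10, H3C6 and H4C13 had none in that window. Capitals mark the stem and loop (16 bases, to which the coordinates refer), and lower case marks 5 bases on each side.
H1-2, chr6:26055744-26055759, minus strand: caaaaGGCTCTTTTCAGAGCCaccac
H2AC6, chr6:26124669-26124684, plus strand: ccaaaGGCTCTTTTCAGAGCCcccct
H2AC11, chr6:27133515-27133530, plus strand: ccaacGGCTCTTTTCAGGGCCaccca
H2BC12, chr6:27146366-27146381, minus strand: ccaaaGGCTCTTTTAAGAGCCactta
H3C11, chr6:27871850-27871865, minus strand: caaaaGGCTCTTTTCAGAGCCcctca
H4C3, chr6:26104317-26104332, plus strand: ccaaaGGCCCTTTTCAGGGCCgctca
H4C9, chr6:27139654-27139669, plus strand: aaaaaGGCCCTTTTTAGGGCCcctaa
All 14 H4 genes with a match had CCC in the 5′ arm paired with GGG in the 3′ arm. In 46 members of the other classes the arms held CTC and GAG. H2AC11, shown above, and H2AC15 had neither pair of arms. The stem-loop therefore sorted the H4 genes from the other classes by a single base pair of the stem.

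Total counts ranged from 10327498 to 12379671 per library, and a count of 0 allowed up to 0.302 CPM (a gene's counts relative to the scaled size of its library) in the library with the highest such limit, for counting error only. TRMT6 was at 211 and 181 CPM in OE-WT and at 52.6 and 55.4 CPM in CTRL, and TRMT61A was at 138 and 130 against 58.9 and 56.8 CPM. All 9 colon epithelial markers had counts, and their sum lay between 10251 and 11872 CPM. Most of the sum came from KRT8 and KRT18, and LGALS4 was at no more than 1.21 CPM. At an adjusted p below 0.05 by edgeR, 2 of the 9 were higher in OE-WT and 3 lower, against 9.44% and 11.6% of all genes tested. Of 9 markers of other cell types, 4 were at 0 in every library and the sum of all 9 lay between 3.83 and 6.22 CPM. The labels describe oligo(dT) selection of poly(A) RNA, whereas the methods of the study describe removal of ribosomal RNA. This difference bears directly on mRNAs without a tail, and its part in the results was not tested.

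Scaled counts of histone mRNA were about 2-fold higher in OE-WT than in CTRL. Summed over the 65 members, the level was 611 and 644 CPM with overexpression and 327 and 306 CPM without, where CPM were scaled by TMM (the trimmed mean of M-values). Both OE-WT sums lay above both CTRL sums, with a ratio of the means of 1.98, between 1.87 and 2.11 when each OE-WT library was set against each CTRL library. In bulk RNA, more cells in S phase and more histone mRNA per cell cannot be told apart. Whether the libraries recovered RNA without a tail to unequal degrees was not tested either. No test was run on sums, since with 2 libraries against 2 the smallest two-sided p of an exact permutation test is 0.333.

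Of the 65 members, 39 had enough counts for the test across all 14133 genes, 15 had between 1 and 34 counts in total over the libraries, and 11 were at 0 in every library. At an adjusted p below 0.05 (edgeR quasi-likelihood test), 28 members were higher in OE-WT and 0 were lower. Among all genes tested, 9.44% were called higher and 11.6% lower. At an unadjusted p below 0.05 in the same test, 32 members were higher and 0 lower. The matching share of all genes was not computed, so this count says little by itself. DESeq2 called 15 higher and 0 lower and gave no adjusted p for 16 members. Of the 28, it left H2AC6, H2AC11, H2BC4, H2BC15, H3C10 and H4C8 above the threshold.

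Both OE-WT libraries lay above both CTRL libraries for 34 of the 39 members, against 29.9% of all genes. The median log2 fold change of the members tested was 1.00, and that of all genes tested was 0.01. With an unadjusted p below 0.05 and a log2 fold change above 1, 19 members passed as higher and 0 as lower, beside 0.899% of all genes as higher and 2.25% as lower. H2AC13, H2AC14, H2BC9, H4C2, H4C4 and H4C13 reached the minimum count for testing only through OE-WT, and 4 of these 6 were called. Conversely, H2BC26 reached the minimum count in both CTRL libraries but not in OE-WT replicate 2, and was not called. Among the 33 members that reached it in both CTRL libraries, 24 were called higher and the median log2 fold change was 0.96.

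**Figure D1:**
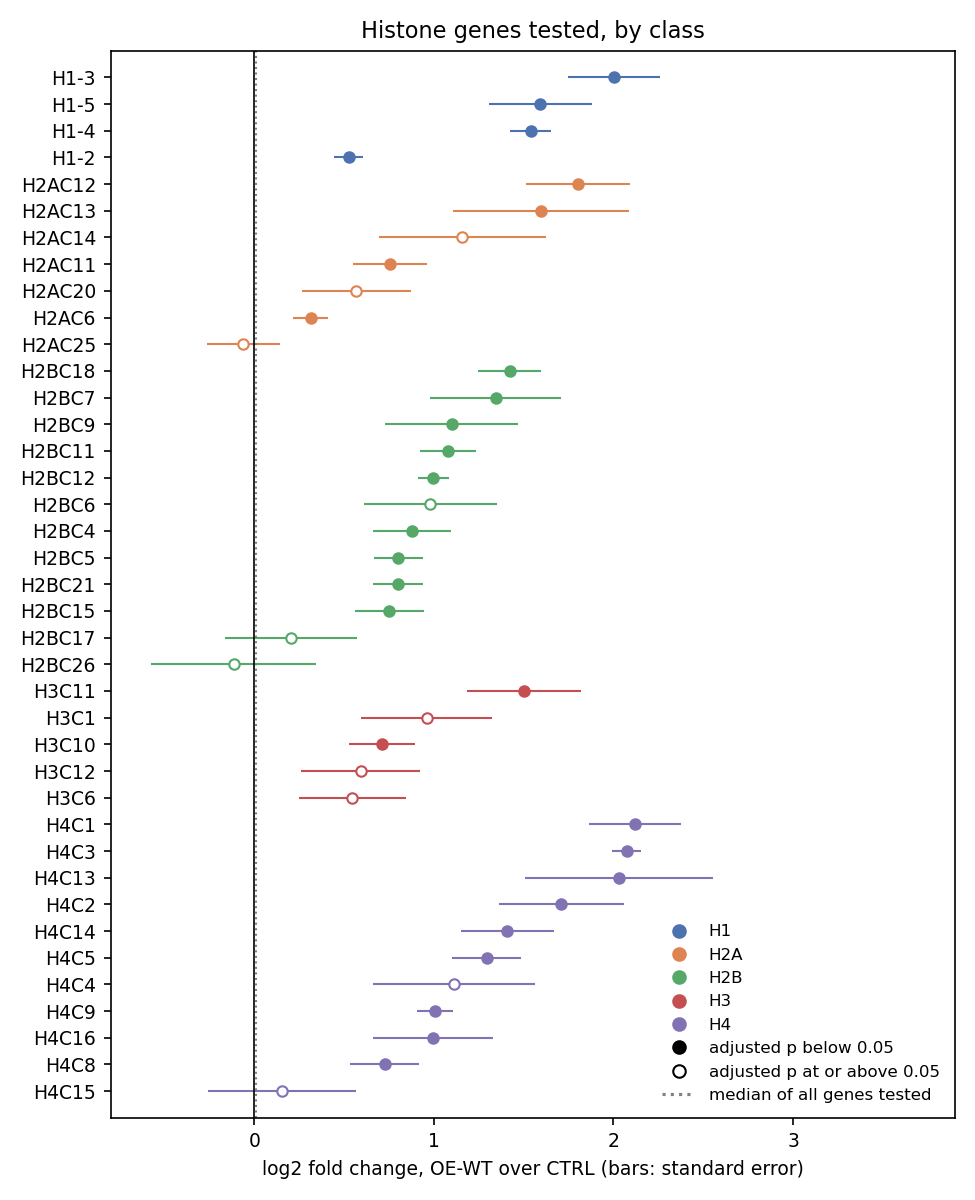
Log2 fold change of OE-WT over CTRL (x axis) for the 39 histone genes tested (y axis, grouped and coloured by class), with bars for the standard error. Filled points have an adjusted p below 0.05, and every filled point lies to the right of 0. H2AC25 and H2BC26 are the only genes to the left of 0, and the dotted line marks the median of all genes tested, 0.01.

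By class, the H4 genes differed most in summed level. The 15 H4 genes added up to 195 and 199 CPM in OE-WT and 68.6 and 69.5 CPM in CTRL, a ratio of 2.85 (2.80 to 2.90 over the pairings of libraries). H2B stood at 178 and 192 against 95.7 and 94.2 CPM, a ratio of 1.94 (1.86 to 2.04). For H3 the sums were 21.8 and 21.6 against 13.2 and 11.4 CPM, a ratio of 1.76 (1.64 to 1.90). In each of these classes both OE-WT sums exceeded both CTRL sums.

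H1 summed to 159 and 176 CPM in OE-WT and 107 and 90.7 CPM in CTRL, a ratio of 1.69 (1.49 to 1.94). H2A had the lowest ratio, 1.39 (1.33 to 1.45), with sums of 57.7 and 56.9 against 42.8 and 39.7 CPM. H4 made up 31.3% of all histone counts in OE-WT and 21.8% in CTRL, on the CPM scale, while H2A made up 9.13% and 13.05%. The places of H4 and H1 in this order rested in part on single genes. Without H4C3 the H4 ratio was 2.14, and without H1-2 the H1 ratio was 3.04. H2A without H2AC6 had a ratio of 1.60, still the lowest beside the full sums of the other classes. Differences between classes were not tested.

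**Figure D2:**
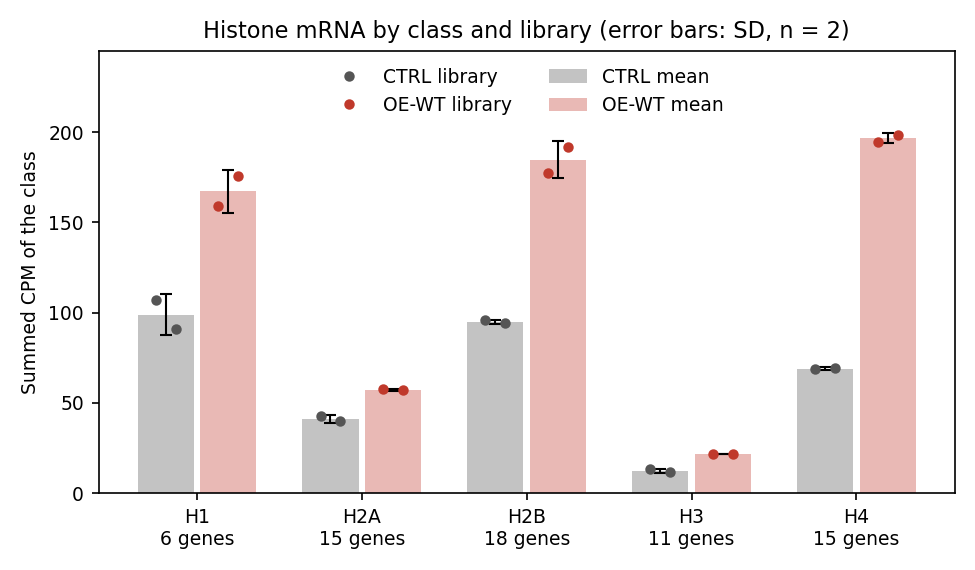
Summed CPM (y axis, from 0) of each histone class (x axis, with the number of genes) in the CTRL and OE-WT libraries, shown as points, with bars for the means and error bars for the SD of 2 libraries. Both OE-WT libraries lie above both CTRL libraries in every class, and the gap is widest in H4, at 197 against 69.0 CPM on average.

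Among the H4 genes, which with the exception of the divergent H4C7 encode the same core histone, 9 of the 11 tested were called higher and 0 lower. Of these 11, H4C2 and H4C13, both called, and H4C4 reached the minimum count only through OE-WT. H4C3 led the class. H4C3 (ENSG00000197061) had 1021 and 982 counts with overexpression and 293 and 303 with the empty vector, or 99.7 ± 4.49 against 23.7 ± 1.29 CPM (SD, n = 2). The groups were far apart, with a log2 fold change of 2.07 ± 0.08 (SE) and an adjusted p of 3.5e-13 by edgeR. H4C9, the next most abundant, had 480 and 613 counts in OE-WT against 351 and 329 in CTRL. Its log2 fold change was 1.01 ± 0.10 with an edgeR adjusted p of 3.5e-07. Both genes are intronless and end at the stem-loops shown above.

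H4C1 had 61 and 68 counts in OE-WT against 18 and 19 in CTRL, and with a log2 fold change of 2.12 ± 0.26 it held the largest change of the members (edgeR adjusted p = 4.5e-06). H4C5 had 129 and 98 against 62 and 54 counts, a log2 fold change of 1.29. The groups did not overlap for either gene. H4C8 (0.73), H4C2 (1.71), H4C13 (2.03), H4C14 (1.41) and H4C16 (1.00) were also called higher, with log2 fold changes in brackets. Some of these calls turned on a library: that of H4C8 was lost without OE-WT replicate 2 (adjusted p = 0.093 by edgeR) and without CTRL replicate 1 (0.077), that of H4C13 without OE-WT replicate 2 (0.122), and that of H4C16 without any 1 of the libraries (0.073 to 0.162). H4C4 was not called, at 1.11 ± 0.45 with an edgeR adjusted p of 0.085, and passed without OE-WT replicate 2 (0.017) and in the likelihood ratio test (0.048). H4C15, named here after its values were seen, was at 0.15 ± 0.41, with 11 and 13 counts in OE-WT against 16 and 11 in CTRL. H4C15 shares every window of 100 bases with another gene, chiefly with H4C14, so their counts are uncertain one against the other.

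The H3 genes, which encode the partner of H4 in the nucleosome core, had few counts in each library. H3C10 had 79 and 91 counts in OE-WT against 70 and 60 in CTRL, a log2 fold change of 0.71 ± 0.19 (edgeR adjusted p = 0.0086). H3C11 had 36 and 30 counts against 13 and 16, a log2 fold change of 1.50 ± 0.32 (edgeR adjusted p = 0.0018). These 2 of the 5 H3 genes tested were called higher, and H3C10 lost its call without OE-WT replicate 2 (adjusted p = 0.067 by edgeR). H3C6 had 36 and 27 counts in OE-WT against 33 and 21 in CTRL, and was not called at 0.55 ± 0.30. H3C1 (0.96) and H3C12 (0.59), both named after their values were seen, did not pass either, but H3C1 passed in the likelihood ratio test (adjusted p = 0.044), under a minimum of 10 counts per library (0.041) and with the GC trend removed (0.041). H3C12 overlaps H2AC17 on the same strand.

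H2B genes ranged widely in level, and 9 of the 12 tested were called higher. Of these 9, H2BC9 reached the minimum count only through OE-WT. H2BC12 was the most abundant, with 845 and 1071 counts in OE-WT against 620 and 582 in CTRL, or 95.2 ± 14.2 against 47.7 ± 0.672 CPM (SD, n = 2). Its log2 fold change was 1.00 ± 0.09 (edgeR adjusted p = 7.9e-08), and 22.5% of its windows of 100 bases occur in other genes as well. H2BC18, in the chromosome 1 cluster, had the largest change of the class, with 135 and 126 counts in OE-WT against 69 and 53 in CTRL. Its log2 fold change was 1.42 ± 0.18 (edgeR adjusted p = 6.0e-06), and 36.7% of its windows occur in other genes. For both H2BC12 and H2BC18 the OE-WT libraries stood clear of the CTRL libraries.

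H2BC5 had 184 and 181 counts against 131 and 131, and H2BC21 had 173 and 182 against 138 and 117. Both had a log2 fold change of 0.80 and were called. H2BC7 (1.34), H2BC9 (1.10), H2BC11 (1.08), H2BC15 (0.75) and H2BC4 (0.88, named after its value was seen) were called as well. The call of H2BC7 was lost without OE-WT replicate 1 (adjusted p = 0.200 by edgeR) and without CTRL replicate 1 (0.084), and that of H2BC9 without OE-WT replicate 1 (0.054), OE-WT replicate 2 (0.173) or CTRL replicate 1 (0.285). Of the rest, likewise named afterwards, H2BC6 was at 0.98 ± 0.37 (edgeR adjusted p = 0.065, but 0.042 in the likelihood ratio test and 0.039 under a minimum of 10 counts per library), H2BC17 at 0.21 ± 0.37 and H2BC26 at -0.11 ± 0.46.

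The H2A genes differed least between the groups in summed level, and their most abundant gene had a small change. H2AC6 had 301 and 313 counts in OE-WT against 317 and 302 in CTRL, or 30.5 ± 0.309 against 24.6 ± 0.0893 CPM (SD, n = 2) after scaling. Its log2 fold change was 0.31 ± 0.10 (edgeR adjusted p = 0.025), and the call was lost without any 1 of the libraries (adjusted p from 0.076 to 0.105), under library size scaling (0.134), in DESeq2 (0.191), with the GC trend removed (0.101) and without the filter on low counts (0.084). The gene ENSG00000291336 overlaps 1.6% of the exon bases of H2AC6 on the same strand.

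Other H2A genes changed more. H2AC12 had 49 and 49 counts in OE-WT against 13 and 22 in CTRL, a log2 fold change of 1.80 ± 0.29 (edgeR adjusted p = 1.3e-04). H2AC11 (0.76) and H2AC13 (1.60) were also called, and H2AC14 was not, at 1.16 ± 0.46 with an edgeR adjusted p of 0.082. H2AC11 lost its call without OE-WT replicate 2 (adjusted p = 0.081 by edgeR) and CTRL replicate 1 (0.060), and H2AC13 without OE-WT replicate 1 (0.087), CTRL replicate 1 (0.053) or CTRL replicate 2 (0.160). H2AC13 and H2AC14 share 58.8% and 61.8% of their windows, mostly with each other. H2AC25 had 63 and 63 counts in OE-WT against 99 and 66 in CTRL, a log2 fold change of -0.06 ± 0.20. In all, 4 of the 7 H2A genes tested were higher. Of these 7, H2AC13, which was called, and H2AC14 reached the minimum count only through OE-WT.

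All 4 H1 genes tested among the members were called higher, but their most abundant gene differed least. H1-2 had 1119 and 1287 counts in OE-WT against 1148 and 947 in CTRL, or 120 ± 9.72 against 83.1 ± 8.74 CPM (SD, n = 2). Its log2 fold change was 0.53 ± 0.08 (edgeR adjusted p = 6.1e-05). H1-4 had 348 and 378 counts against 175 and 138, a log2 fold change of 1.54 ± 0.12 (edgeR adjusted p = 9.6e-09). H1-2 and H1-4 are both replication-dependent linker histones found in most somatic cells, and in both the groups did not overlap in CPM.

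H1-3 had 59 and 73 counts in OE-WT against 23 and 18 in CTRL, a log2 fold change of 2.00 ± 0.26. H1-5 had 51 and 48 counts against 27 and 14, a log2 fold change of 1.59 ± 0.29. H1-1 and H1-6, the latter known as the testis linker histone, were at 0 in every library. So were H2AC1 and H2BC1, known as testis histones, and H2AC7, H2BC8, H2BC10, H3C4, H3C8, H4C6 and H4C7. H2AC7 and H3C4 are overlapped on the same strand by the gene ENSG00000282988, so a 0 there need not mean that no reads fell on them.

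**Figure D3:**
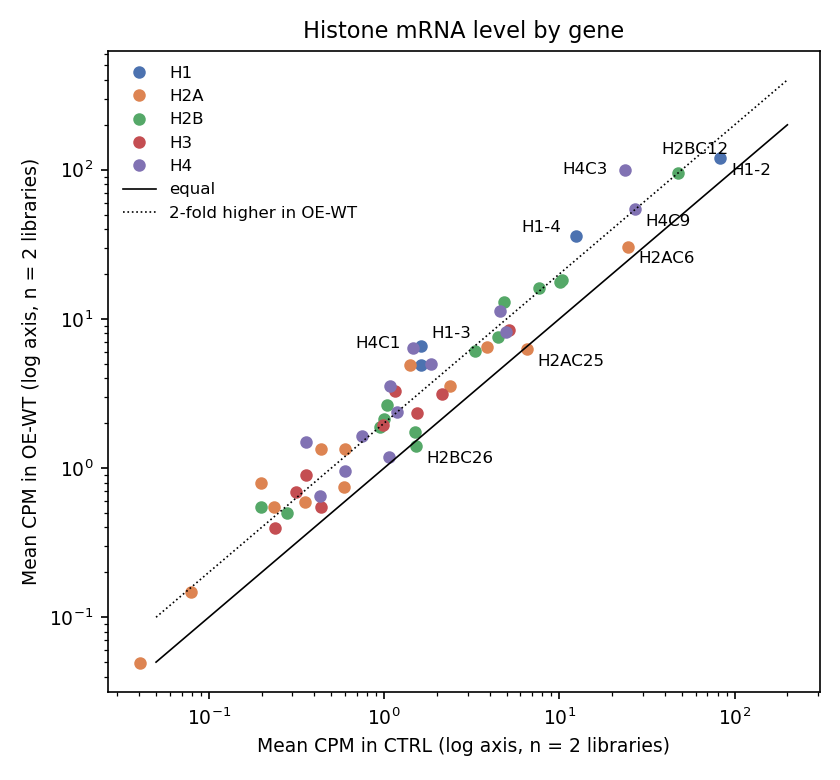
Mean CPM in OE-WT (y axis) against mean CPM in CTRL (x axis), both on log axes, for each histone gene with counts in both groups, coloured by class. The solid line marks equal levels and the dotted line a 2-fold higher level in OE-WT, and H4C3, H4C1, H1-3 and H1-4 lie above the dotted line while H2AC6 lies near the solid line and H2AC25 and H2BC26 just below it.

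The counts were concentrated in few genes. H1-2, H2BC12, H4C3 and H4C9 together held 58.8% of the members' CPM in OE-WT and 57.4% in CTRL. Per kilobase of exon, H4C3 was the most abundant member in OE-WT, at 246 CPM, followed by H2BC12 at 192, H1-2 at 164 and H4C9 at 137. Without H1-2 the ratio over all members was 2.18, an alternative chosen after the data were seen.

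By position, the summed level was higher in OE-WT in every cluster except the pair at 1q42 on chromosome 1. The chromosome 6 cluster held 53 members, of which 24 of 31 tested were called higher. All 6 members tested only through OE-WT, 4 of them called, lie there. The summed level of the cluster was 556 and 594 CPM in OE-WT and 293 and 277 CPM in CTRL, a ratio of 2.01. Within it, the ratio was 2.02 for the 32 members between positions 25723397 and 26285638, 2.02 for the 5 between 27125897 and 27147562, and 1.94 for the 16 between 27807479 and 27893891. These stretches of GRCh38 thus differed little in ratio.

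The 1q21 cluster held 9 members, of which 3 of 5 tested were called higher, with 43.6 and 41.6 CPM in OE-WT against 23.6 and 19.6 in CTRL, a ratio of 1.97. H4C16, alone on chromosome 12, had 22 and 26 counts against 15 and 15. In the pair at 1q42, H2AC25 and H2BC26, neither gene was called, and the sum was 8.56 and 6.78 CPM in OE-WT against 8.78 and 7.31 in CTRL, a ratio of 0.95 (0.77 to 1.17 over the pairings of libraries). The groups overlapped there. H2BC26 had only 22 and 6 counts in OE-WT against 14 and 24 in CTRL, and its log2 fold change of -0.11 had a standard error of 0.46. It reached the minimum count in both CTRL libraries but not in both OE-WT libraries.

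H2A and H2B genes often lie head to head and share the stretch between their starts. There were 12 such pairs, with 169 to 250 bases between the annotated ends, and both partners were tested in 5. The log2 fold changes of H2B and H2A were 0.88 and 0.31 for H2BC4 with H2AC6, 1.08 and 0.76 for H2BC11 with H2AC11, 1.00 and 1.80 for H2BC12 with H2AC12, 0.80 and 0.57 for H2BC21 with H2AC20, and -0.11 and -0.06 for H2BC26 with H2AC25. The H2B gene had the higher value in 3 of the pairs. Since 37 of the 39 members tested were above 0, a shared sign says little, and the signs of H2AC25 and H2BC26 changed when a library was left out. Of these genes, H2BC4, H2BC26 and H2AC20 are named after their values were seen.

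A histone gene can also give rise to transcripts that are spliced or run past the stem-loop, and these can end in a poly(A) tail. GENCODE annotates such a transcript, spliced or extending more than 50 bases past the stem-loop, for 18 of the 65 members. Their summed level was 150 and 148 CPM in OE-WT and 94.7 and 89.8 CPM in CTRL, a ratio of 1.62 (1.57 to 1.68 over the pairings of libraries), and 11 of 17 tested were called higher with a median log2 fold change of 0.75. The other 47 members summed to 460 and 496 against 232 and 216 CPM, a ratio of 2.13 (1.98 to 2.30). In this group 22 were tested, 6 of them through OE-WT alone, and among the other 16, 13 were called higher with a median of 1.32. Among the 17 tested with such a transcript, H2BC26 reached the minimum count in both CTRL but not both OE-WT libraries. Members without an annotated longer or spliced form thus had the larger ratio.

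Ratios with such a transcript were below those without it in H4, H2A and H3 over all pairings of libraries, while in H2B the ranges overlapped. The ratio with and without such a transcript was 1.84 and 3.001 for H4, 1.18 and 2.02 for H2A, 1.89 (1.83 to 1.96) and 1.99 (1.79 to 2.19) for H2B, and 1.58 and 2.22 for H3. No H1 gene had such a transcript. The H2A genes with it averaged a sum of 36.8 CPM in OE-WT, of which H2AC6 alone held 30.5. The H3 genes without it averaged sums of only 7.76 CPM in OE-WT and 3.50 CPM in CTRL, with 2 tested. Annotation does not show which form was present in these libraries, the counts do not separate the forms, and the difference was not tested.

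**Figure D4:**
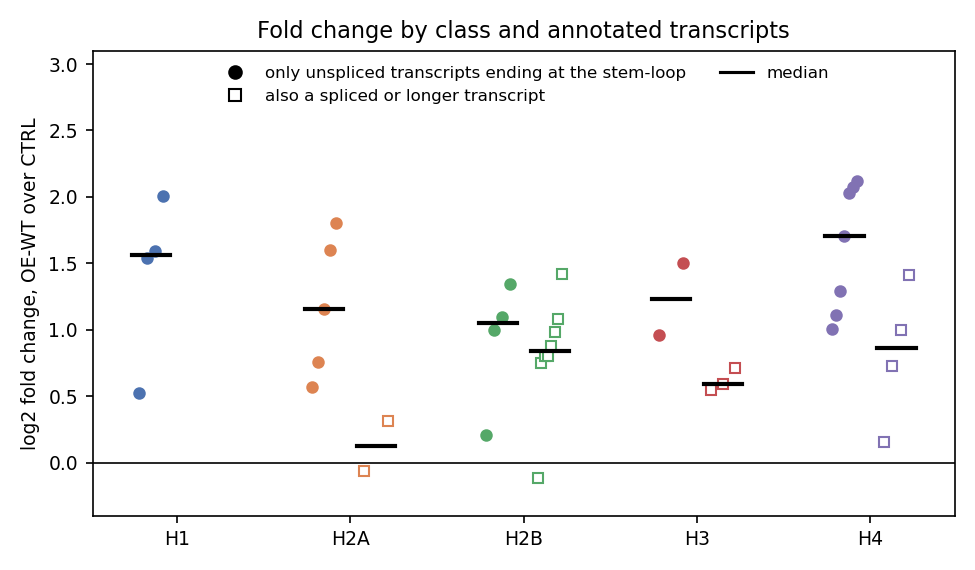
Log2 fold change (y axis) of the histone genes tested by class (x axis), with filled circles for genes without and open squares for genes with an annotated transcript that is spliced or runs past the stem-loop, and black lines for the medians. H4C13, which had no stem-loop match, is among the filled circles. In each class that has both kinds the median of the filled circles is the higher one, also without the 6 genes, all filled circles, that were tested through OE-WT alone.

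The promoters separated the classes too. RefSeq start sites (GRCh38.p14) were found for 60 of the 65 members, and the 250 bases before each were searched on both strands for the octamer ATTTGCAT, which POU2F1 binds, for CCAAT, for TATAAA and for AAACACA, the H1 box. Each gene was counted once, as holding a motif where any of its start sites did, so the numbers of promoters are numbers of genes. The octamer was present in 11 of 14 H2A and 14 of 18 H2B promoters and in 2.03% of all 27305 promoters. It was in 0 of 13 H4 and 0 of 6 H1 promoters, and the 1 of 9 H3 promoters that held it belongs to H3C4, whose listed start is also that of H2AC7. Since both strands were searched, an octamer between head-to-head H2A and H2B genes can count for both partners. This was so for H2AC6 and H2BC4, and it also holds for the split by octamer below. AAACACA was in all 6 H1 promoters, in none of the other classes, and in 5.95% of all promoters. CCAAT was in all H1, H2A, H2B and H3 promoters, in 3 of 13 of H4 and in 37.0% of all, and TATAAA was in 66.7% of the members and 13.05% of all.

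The 150 bases before the start of a leading gene of 4 classes are shown so that the motifs can be seen in place, in capitals on whichever strand they occur. The H4C9 stretch holds CCAAT, which most H4 promoters lack.
H1-4, chr6:26156179-26156328, plus strand: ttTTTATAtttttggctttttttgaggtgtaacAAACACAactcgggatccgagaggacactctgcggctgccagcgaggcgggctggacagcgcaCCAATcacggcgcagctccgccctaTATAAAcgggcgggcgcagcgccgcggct
H2BC12, chr6:27146859-27147008, minus strand: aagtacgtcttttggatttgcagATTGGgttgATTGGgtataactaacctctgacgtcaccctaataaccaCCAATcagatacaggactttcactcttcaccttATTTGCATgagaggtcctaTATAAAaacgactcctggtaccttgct
H3C10, chr6:27809901-27810050, plus strand: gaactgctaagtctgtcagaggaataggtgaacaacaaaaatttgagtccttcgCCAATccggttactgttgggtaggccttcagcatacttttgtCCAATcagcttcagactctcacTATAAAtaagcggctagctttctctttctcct
H4C9, chr6:27139132-27139281, plus strand: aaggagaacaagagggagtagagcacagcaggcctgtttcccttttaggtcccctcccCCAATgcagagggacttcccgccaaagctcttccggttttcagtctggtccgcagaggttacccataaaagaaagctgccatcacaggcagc
The H2BC12 stretch lies between this gene and H2AC12. H2AC12 (log2 fold change 1.80) was tested but had no RefSeq start under its symbol, and is left out of this comparison. Among the other H2A and H2B genes, 13 with the octamer and 5 without it were tested. H2AC14 and H2BC9 of the former and H2AC13 of the latter reached the minimum count only through OE-WT. Leaving these out, the 11 with the octamer had log2 fold changes from 0.21 to 1.42, with a median of 0.88 and 8 called higher, and the 4 without it had values from -0.11 to 0.80, with a median of 0.34 and 2 called. H2BC26, kept among the 4, reached the minimum count in both CTRL libraries but not in OE-WT replicate 2. With no gene left out, the median was 0.98 for the 13 with the octamer, 9 of them called higher. For the 5 without it the median was 0.75, with 3 called. The gap between the medians thus depended on which genes were left out. The ranges overlapped, H2AC25 and H2BC26 are both among the 4, and the difference was not tested.

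Of 22 genes for histone transcription and 3′ end processing, 5 were called higher and 0 lower, or 22.7% higher against 9.44% of all genes, with a median log2 fold change of 0.13. These were POU2F1 (0.66), CCNE2 (0.73), a cyclin that with CDK2 phosphorylates NPAT, the cleavage factors CPSF2 (0.51) and SYMPK (0.22), and the cap-binding protein NCBP1 (0.28). CCNE2 was at 8.06 and 4.91 CPM in OE-WT and 3.11 and 4.71 CPM in CTRL (edgeR adjusted p = 0.042). Its OE-WT replicate 2 thus lay close to CTRL replicate 2. CCNE1 (0.12), also a cyclin of this list, and CDK2 (0.10), both named after their values were seen, were not called. SLBP was at 101 and 101 CPM in OE-WT and 92.4 and 84.9 CPM in CTRL, a log2 fold change of 0.19 ± 0.07 that was not called (edgeR adjusted p = 0.066). NPAT had 17 and 23 counts against 13 and 15, a log2 fold change of 0.83 ± 0.36 (edgeR adjusted p = 0.108).

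Among histone chaperones and the acetyltransferase HAT1, 5 of 18 tested (27.8%) were higher and 0 lower, with a median of 0.16. The 5 were ASF1B (0.39), HAT1 (0.45), NAP1L4 (0.30) and the FACT subunits SSRP1 (0.21) and SUPT16H (0.61). DNA replication genes were called higher in 12 of 15 cases (80.0%) and lower in 0, with a median log2 fold change of 0.33. They included PCNA (0.33), the sliding clamp, RRM2 (0.50), a subunit of ribonucleotide reductase, POLA1 (0.87), TYMS (0.27), FEN1 (0.33), GINS2 (0.46) and the helicase subunits MCM2 (0.46), MCM3 (0.50), MCM4 (0.29), MCM5 (0.32), MCM6 (0.54) and MCM7 (0.27). All of these changes were smaller than the median of the histone genes tested.

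The histone variants with polyadenylated mRNAs changed in both directions. Of 10 tested, 4 were called higher (40.0%, against 9.44% of all genes) and 1 lower (11.6% of all genes). The 4 were H2AX (0.20), which is phosphorylated at DNA breaks, H2AZ1 (0.22), MACROH2A1 (0.26) and H3-3A (0.34), with log2 fold changes in brackets. The median of the 10 was 0.10, with 6 above and 4 below 0.

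Of other RNAs without a tail, RN7SL2 and SNORD3B-1 were higher in OE-WT as well. The summed level of 16 such RNAs was 710 and 656 CPM in OE-WT and 328 and 288 CPM in CTRL, and most of it came from RN7SL2, the RNA of the signal recognition particle, at 641 and 603 against 280 and 235 CPM (log2 fold change 1.27, edgeR adjusted p = 3.0e-10). Of these 16, 6 were tested, 2 were called higher (33.3%, against 9.44% of all genes; SNORD3B-1 at 0.79), 0 were lower, and 9 were at 0 in every library. SNORD3A, a U3 RNA named after its value was seen, was at 51.7 and 41.2 CPM in OE-WT and 39.2 and 45.1 CPM in CTRL, and its groups overlapped. RNU4-1, RNU5A-1 and RNU4ATAC, also named afterwards, did not pass, at 0.76, 0.47 and 0.96, and the median of the 6 was 0.77. The part of this in the histone differences was not tested.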

How the data were processed

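The deposited values are raw counts of reads per gene, 1 column per library. The labels list 2 lanes per library, which count as 1 replicate. The methods of the study describe 3 biological replicates per group, and the table held 2 libraries per group. According to the methods of the study, the authors trimmed reads with Cutadapt, aligned them to the human genome with HISAT2 and counted with HTSeq, whereas the submitters' processing notes name HISAT2 2.2.1, featureCounts 2.0.0 and DESeq2 1.34.0. The GENCODE release and strand setting of the counting are not given in the sources used here. Gene symbols, coordinates and transcripts came from GENCODE 44 on GRCh38, which matched 57532 rows, and promoters from RefSeq.

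OE-WT was compared with CTRL with edgeR 4.0.16 in R 4.3.3, after filterByExpr (minimum count 10, by group), with TMM scaling, the quasi-likelihood test and Benjamini-Hochberg adjustment over 14133 genes. Each standard error was derived from the log2 fold change and its F statistic (quotient of the former and root F). CPM use TMM-scaled library sizes, and sums include untested members. Windows of 100 bases were compared with the exons of all other genes. The code was tested on simulated counts.

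The members and lists were chosen with earlier results of these data known. Genes named are, per class, the 3 most abundant, the largest and smallest change among those with a mean of at least 20 counts, and all that passed both an unadjusted p of 0.05 and a log2 fold change of 1 in size; TRMT6, TRMT61A, SLBP, NPAT; and called members of the pathway lists. Colon and other cell type markers were summed, and KRT8, KRT18 and LGALS4 are named after their values were seen. The alternatives tried were DESeq2 1.42.0, the likelihood ratio test, RLE scaling, library size alone, other filters, a replicate block, each library left out, and a GC trend (lowess, span 0.3) removed. One gene of the list of polyadenylated variants is counted in that list but not reported here.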

Additional observations from a re-analysis of the deposited data

How the results depend on the processing

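With 2 libraries per group depth and replication set the limits. The count of members called higher was 28 in the main analysis, 15 in DESeq2, where 6 of the 28 missed the threshold and 7 had no adjusted p, and 21 to 25 with 1 library left out, where the lone library is assumed to vary like the other group. It was 26 under library size only, 31 in the likelihood ratio test, 25 of 54 tested without the filter, 27 of 33 with at least 10 counts in every library, and 28 with the GC trend removed, 27 of them the same genes. Over all genes DESeq2 called 522 higher and 855 lower, against 1334 and 1642. Library size only moved the median of all genes to -0.08 and the share of higher among all calls from 44.8% to 23.0% (733 higher and 2451 lower).

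The median log2 fold change of the members tested was 0.91 under library size only, 1.08 with the GC trend removed, and 0.91 to 0.99 with 1 library left out. Ratios under library size only were 1.30 for H2A, 1.83 for H2B, 2.68 for H4 and 1.89 for chromosome 6. Without the member with the most counts they were 3.04 for H1, 1.60 for H2A, 2.14 for H4 and 2.25 for chromosome 6, and H4 without members that share over 50% of their windows was at 2.90. The sign changed only for members that were not called. With 1 library left out, H2AC25 ranged from -0.30 to 0.23, H2BC17 from -0.16 to 0.72, H2BC26 from -1.34 to 0.54 and H4C15 from -0.059 to 0.41. With the GC trend removed H2AC25 was at 0.025. Same-numbered libraries did not deviate together (correlation -0.07 across genes), so the numbers name libraries only; with the replicate block 28 members were called, all 28 of them those of the main analysis, and 2658 of all genes. The cause of these shifts was not tested.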

Other observations

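The 15 members with counts but too few for the test summed to 7.96 and 8.26 CPM in OE-WT and 4.90 and 3.82 CPM in CTRL, a ratio of 1.86. Their mean CPM was higher in OE-WT in 15 of 15, and for 10 of them both OE-WT libraries lay above both CTRL libraries. The matching shares over all untested genes were not computed, so these counts say little. H2AC17 had 0 and 1 counts and H3C15 had 5 and 6 counts in each group, and these 2 genes differed in CPM through library scaling alone. Single genes of this group had at most 34 counts over the 4 libraries.

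Reads of histone genes can be hard to place where a near-identical copy exists or another gene is annotated over the same bases. Of the 65 members, 43 shared no window of 100 bases with another gene and 11 shared over 50% of their windows. Among the 11, H2AC7, H3C4 and H2AC17 shared them with a gene that overlaps them on the same strand. The 11 had a ratio of OE-WT to CTRL of 2.01 and the other 54 of 1.98.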
